A study of Homo sapiens with 3 samples.

Results

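The regions described here are all HDAC1 peak summits on human chromosome 2, listed as chr2 on the hg19 build, in untreated and H89-treated HepG2 cells. They were chosen by chromosome alone, with no measured value in the rule. The control list held 759 of its 9476 summits on chromosome 2 (8.01%) and the H89 list 888 of its 11553 (7.69%), or 1647 of 21029 summits in all. HepG2, a human hepatocellular carcinoma line, is known to carry chromosome 2 in extra copies. DNA copy number and gene expression have no values in these data, so neither the gain nor liver markers could be checked.

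HDAC1 positions were profiled by CUT&Tag, a method that uses an antibody to tether a transposase to chromatin, so that tagged fragments pile up at the target. The series title names HDAC1 as the target. Its libraries were WT_control (genotype WT, without H89), WT_treated (genotype WT, with H89) and IgG (genotype WT, without H89), with 1 library each. All 3 came from HepG2. The dose and time of H89, an inhibitor of the cAMP-dependent kinase PKA, are not stated in the labels. The comparison asks how the HDAC1 profile differs with H89. The IgG library was not analysed here. Whether the peaks were called against it is not stated, so the IgG background of the values is unknown.

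HDAC1 is a class I histone deacetylase. It removes acetyl groups from histones within corepressor complexes, and it is known to sit at active promoters and enhancers, where acetylation is turned over, as well as at repressed genes. Chromosome bands are the light and dark stretches seen after Giemsa staining. Light (Giemsa-negative) bands are known to be rich in genes and open chromatin, and dark bands to be poor in both. Human chromosome 2 is known to have arisen by end-to-end fusion of a pair of ancestral ape chromosomes, which left a fusion point in 2q13 and a second, silenced centromere in 2q21.

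Each list gave single-base summits, and their scores are taken as −log10 p-values. Each library has its own list, but how its peaks were called is not stated, and read depth is unknown. A list holds only summits that passed the caller's threshold. With 1 library per condition the differences have no replicate check and no test was made. Intervals are exact 95% intervals, binomial for shares and ratios and Poisson for densities. They cover counting error only. The shared summits make the lists dependent, which the intervals of ratios do not take into account. A difference in library depth or efficiency and an effect of H89 cannot be told apart.

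Chromosome 2 carried HDAC1 summits at close to the average density of the genome, and the density was higher with H89. It held 3.12 control summits per Mb (2.90 to 3.35) and 3.65 H89 summits per Mb (3.42 to 3.90) over 243.2 Mb. The other primary chromosomes together held 2.97 (2.90 to 3.03) and 3.62 (3.55 to 3.69). Chromosome 1, the nearest longer chromosome, held 3.53 (3.30 to 3.77) control summits per Mb, and chromosome 3, the nearest shorter one, held 2.27 (2.07 to 2.49). Chromosomes 14, 16, 17 and 20, also known to be gained in HepG2, together held 6.16 (5.90 to 6.43). The control density of chromosome 2 therefore lay between those of its neighbours in length, with intervals that overlapped neither the lower one nor that of the other gained chromosomes.

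The H89 to control ratio of summits on chromosome 2 was 1.17 (1.06 to 1.29). It was 1.22 (1.18 to 1.25) on the other primary chromosomes, and the intervals overlapped. The ratio was 1.24 (1.08 to 1.43) among summits scoring 5 or more, from 352 control and 437 H89 summits. Among summits scoring 10 or more it was 1.74 (1.26 to 2.42), from 62 and 108. The control list had 7 summits at 20 or more and the H89 list 20, a ratio of 2.86. On the other primary chromosomes the ratio was 1.35 (1.29 to 1.41) at 5 or more, 1.87 (1.68 to 2.08) at 10 or more and 2.51 (1.82 to 3.50) at 20 or more. These intervals overlapped those of chromosome 2 at each of the 3 minimum scores.

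The short arm was more densely covered than the long arm in both libraries. It held 345 control and 394 H89 summits on 93.3 Mb, which is 3.70 (3.32 to 4.11) and 4.22 (3.82 to 4.66) per Mb. The long arm held 414 and 494 on 149.9 Mb, or 2.76 (2.50 to 3.04) and 3.30 (3.01 to 3.60) per Mb. The short arm to long arm ratio of densities was 1.34 (1.16 to 1.55) in the control and 1.28 (1.12 to 1.47) with H89. Giemsa-negative bands held 5.34 (4.67 to 6.08) control summits per Mb on the short arm and 4.41 (3.93 to 4.92) on the long arm. These intervals overlapped. In Giemsa-positive bands the control densities were 2.38 (1.96 to 2.85) and 1.19 (0.957 to 1.47), and these intervals did not overlap. The H89 to control ratio was 1.14 (0.986 to 1.32) on the short arm and 1.19 (1.05 to 1.36) on the long arm, with overlapping intervals.

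**Figure D1:**
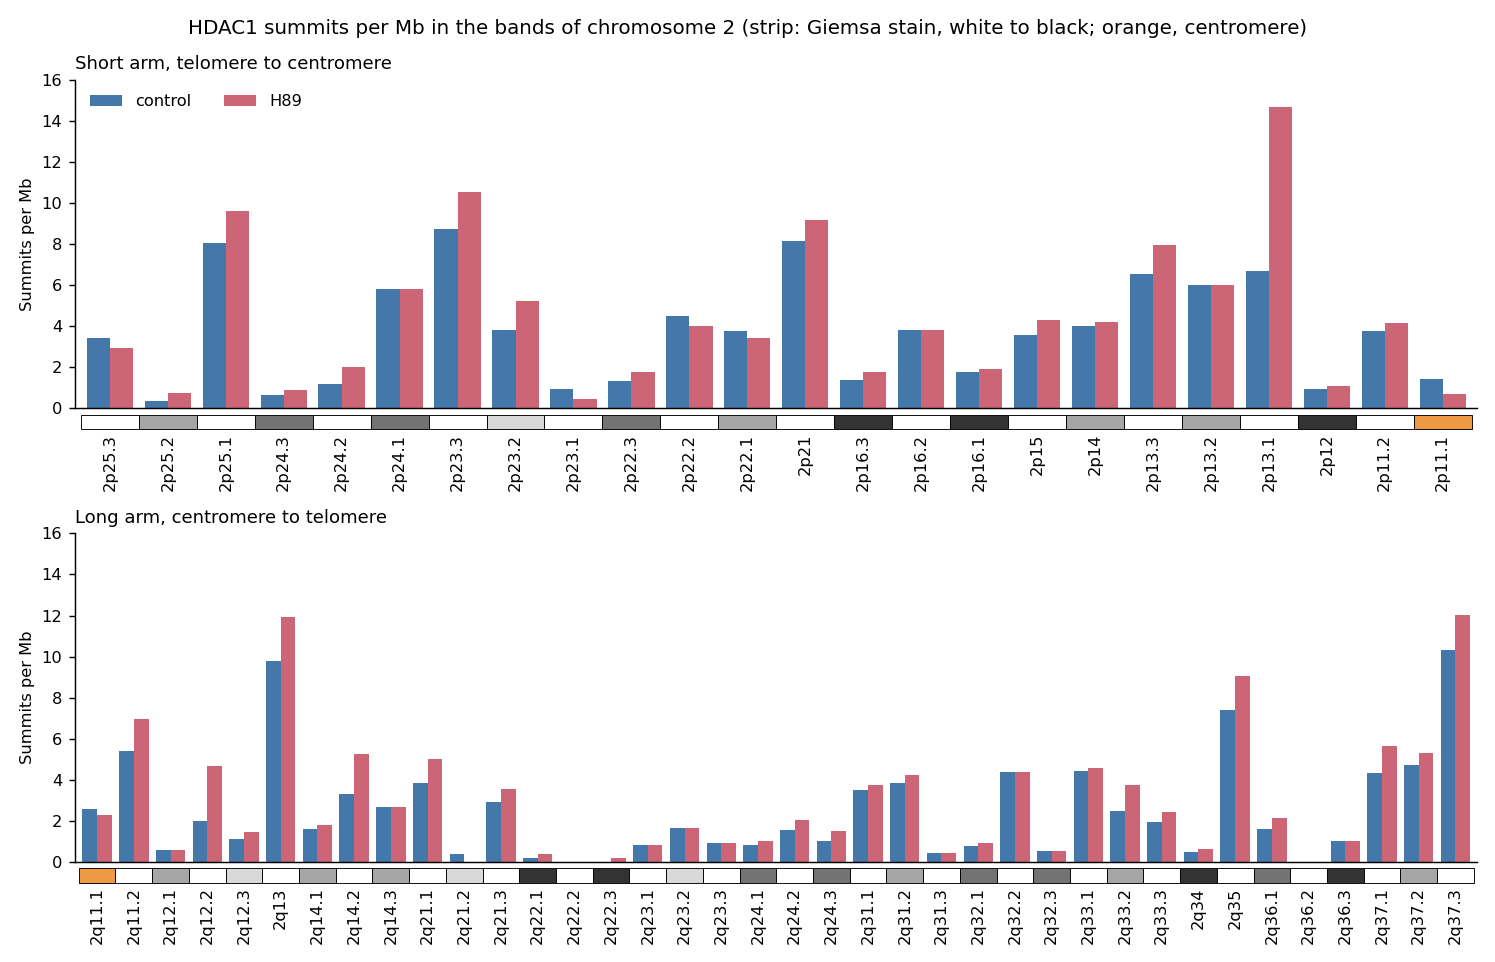
HDAC1 summits per Mb (vertical axis) in each of the 62 bands of chromosome 2, in order along the short arm (upper panel) and the long arm (lower panel), for the control (blue) and H89 (red) libraries, 1 library each. Tall bars in 2q37.3 and 2q13 stand against the near-empty stretch from 2q22.1 to 2q23.1, and 2p13.1 shows the widest gap between the libraries.

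HDAC1 summits were spread unevenly over the 62 bands of chromosome 2. A band was called dense when it held at least 1.5 times the summits per Mb of its whole chromosome in both libraries, and sparse at 0.5 times or less in both. By this rule 11 bands were dense (22.0% of all bands of the genome were) and 23 were sparse (34.9% of all bands). The dense bands make up 19.9% of the chromosome and held 373 control summits (49.1%, interval 45.5 to 52.8) and 448 H89 summits (50.5%, 47.1 to 53.8). The sparse bands make up 38.4% and held 70 (9.22%) and 82 (9.23%). The rule picks bands by these same counts, so a large share in dense bands and a small one in sparse bands follow by construction. The intervals do not allow for this choice. On the other chromosomes dense bands made up 19.6% of the length and held 53.1% (52.0 to 54.1) of control summits, and sparse bands made up 38.3% and held 6.45%. The intervals of the shares in dense bands overlapped those of chromosome 2, and those in sparse bands did not. Of the dense bands 9 were Giemsa-negative, and 7 lay on the short arm and 4 on the long arm. Of the sparse bands 16 lay on the long arm and 7 on the short arm, and 6 were Giemsa-negative.

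Band 2q37.3, the outermost band of the long arm, had the highest control density. It is known to hold HDAC4, a class IIa histone deacetylase, and the liver peroxisomal enzyme gene AGXT. It had 61 control and 71 H89 summits, which is 10.3 (7.91 to 13.3) and 12.0 (9.40 to 15.2) per Mb. Band 2q13 followed, with 41 and 50 summits, or 9.76 (7.01 to 13.2) and 11.9 (8.84 to 15.7) per Mb. Of the 40 one-to-one pairs in 2q13, 23 scored higher with H89 (57.5%, 40.9 to 73.0) and 1 scored lower, against 50.2% and 14.5% of all pairs of the genome.

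The other bands among the 5 densest lay on the short arm. Band 2p23.3, known to hold the glucokinase regulator gene GCKR, which is expressed in hepatocytes, and the DNA methyltransferase gene DNMT3A, had 34 control and 41 H89 summits (8.72 and 10.5 per Mb). Band 2p21, which holds the sterol transporter genes ABCG5 and ABCG8 and the hypoxia factor gene EPAS1, had 49 and 55 (8.17 and 9.17 per Mb). Band 2p25.1, which holds the ornithine decarboxylase gene ODC1 and the transcriptional regulator gene ID2, had 41 and 49 (8.04 and 9.61 per Mb). The Poisson intervals of these 5 bands overlapped in the control, so their order is not resolved. Summits were not assigned to these genes, which serve only to place the bands.

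Dense bands formed 2 runs, both on the short arm. The run from 2p24.1 to 2p23.3 (chr2:19200001-27900000) held 62 control and 69 H89 summits, or 7.13 and 7.93 per Mb. Band 2p24.1, known to hold APOB, the gene of the main protein of low-density lipoprotein, is a darkly staining band, yet it had 28 summits in each library (5.83 per Mb, 3.88 to 8.43) and 6 in each scored 10 or more. The run from 2p13.3 to 2p13.1 (chr2:68600001-75000000) held 41 control and 57 H89 summits, or 6.41 and 8.91 per Mb.

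Within that second run, 2p13.1 had 10 control and 22 H89 summits, the highest H89 to control ratio among the 25 bands with 10 or more control summits (2.20, interval 0.9997 to 5.20). Of the 22 H89 summits, 13 had no control partner within 1000 bp, against 24.9% of H89 summits on chromosome 2 and 27.8% of the whole H89 list. Their band is short, at 1.5 Mb, and reached 14.7 H89 summits per Mb, the highest density of any band of chromosome 2 in either library. Its median score was 5.13 in the control and 4.35 with H89. The neighbouring 2p13.2 had 12 summits in both libraries. Band 2p13.1 was singled out after its values were seen.

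Sparse bands formed 5 runs, and the longest was on the long arm. From 2q22.1 to 2q23.1 (chr2:136800001-149900000), 4 neighbouring bands over 13.1 Mb held 2 control and 4 H89 summits, or 0.153 (0.0185 to 0.552) and 0.305 (0.0832 to 0.782) per Mb. This stretch is known to include the large lipoprotein-receptor-related gene LRP1B and the transcription factor gene ZEB2. None of its summits scored 10 or more. Band 2q22.2 was empty in both libraries, and 2q22.3 had no control summit and 1 H89 summit, with a score of 3.44. After the short band 2q23.2, with 1 summit in each library, the bands 2q23.3 and 2q24.1 (chr2:150500001-159800000) held 8 control and 9 H89 summits. Of these 8 control summits and 8 H89 summits were shared, against 87.6% of the whole control list and 72.2% of the whole H89 list.

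The other sparse runs were shorter and less empty. Bands 2p23.1 and 2p22.3 (chr2:30000001-36600000) held 8 and 9 summits. Bands 2q31.3 and 2q32.1 (chr2:180600001-189400000) held 6 and 7. Bands 2q36.2 and 2q36.3 (chr2:225200001-231000000), where the insulin receptor substrate gene IRS1 lies, held 5 and 5. In the last of these runs 2q36.2 was empty in both libraries, but it spans 0.9 Mb, and its interval reaches 4.10 per Mb, above the density of the chromosome. Over the genome 12.3% of bands were empty in both libraries, against 2 of 62 here (2q22.2 and 2q36.2). The genome figure counts every band, including the 46 centromeric bands of the other chromosomes, which held 21 summits in each library. Empty bands were not compared by staining class.

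The 5 sparsest bands by control density were 2q36.2, 2q22.2, 2q22.3, 2q22.1 and 2p25.2. Of these, 2p25.2 lies on the short arm between the occupied bands 2p25.3 and 2p25.1, and it had 1 control and 2 H89 summits on 2.7 Mb. Band 2q22.1 had 1 and 2 summits on 5.4 Mb. In the sparse bands together the median score was 5.14 in the control and 5.49 with H89, against 4.77 and 5.04 in the dense bands. Of their summits 4 of 70 control (5.71%) and 10 of 82 H89 summits (12.2%) scored 10 or more, against 32 of 373 (8.58%) and 56 of 448 (12.5%) in the dense bands.

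Staining class ordered the densities with an exception. Giemsa-negative bands held 4.75 control summits per Mb (4.36 to 5.17) and 5.68 H89 summits per Mb (5.25 to 6.14), close to the 4.60 and 5.63 of such bands on the other chromosomes. The next classes in order of darkness, gpos50, gpos75 and gpos100, held 2.81, 1.51 and 0.856 control summits per Mb. The palest positive class, gpos25, broke the order with 1.62 (0.865 to 2.78), against 5.37 (5.06 to 5.69) on the other chromosomes, and these intervals did not overlap. On chromosome 2 this class comprises 4 bands over 8.0 Mb, namely 2p23.2, 2q12.3, 2q21.2 and 2q23.2, and 8 of its 13 control summits lay in 2p23.2.

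The centromeric bands of chromosome 2 were not empty. Bands 2p11.1 and 2q11.1 held 13 control and 10 H89 summits on 6.3 Mb, or 2.06 (1.10 to 3.53) and 1.59 (0.761 to 2.92) per Mb. The 46 centromeric bands of the other chromosomes held 21 and 21 on 98.6 Mb, or 0.213 (0.132 to 0.326) in each library. Of the 10 H89 summits all had a control partner, against 72.2% of the whole H89 list. In 2q11.1 there were 9 control and 8 H89 summits with medians of 4.77 and 5.49, and in 2p11.1 there were 4 and 2. The last site of 2p11.1 and the first of 2q11.1 lay 3833 kb apart, with no summit of either library between them. The summits of these bands therefore lay on either side of this gap, and the densities are those of the whole bands. How multiply mapping reads were treated is not stated in the labels.

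The ends of the chromosome differed. The outermost short-arm band, 2p25.3, had 15 control and 13 H89 summits (3.41 and 2.95 per Mb), against the 61 and 71 of 2q37.3. Relative to the control, the H89 count was 0.867 times as high (0.380 to 1.95) in 2p25.3 and 1.16 (0.815 to 1.67) in 2q37.3, with overlapping intervals.

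Band 2q13, which holds the fusion point, was the second densest band, while the adjoining 2q14.1 held 7 control and 8 H89 summits on 4.4 Mb. The silenced ancestral centromere is assigned to 2q21, which comprises 3 bands. Of these 2q21.2 was sparse and held 1 control summit, with a score of 2.97, and no H89 summit on 2.6 Mb. The others, 2q21.1 and 2q21.3, were neither dense nor sparse and held 10 and 5 control summits (3.85 and 2.94 per Mb) and 13 and 6 H89 summits.

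Band 2q31.1, the site of the HOXD cluster of developmental homeobox genes, was of middling density, with 29 control and 31 H89 summits (3.49 and 3.73 per Mb). Of these 21 in each library had a partner, against 87.6% of the whole control list and 72.2% of the whole H89 list. Band 2q33.3, known to hold CREB1, the gene of a transcription factor that PKA phosphorylates, had 8 control and 10 H89 summits (1.95 and 2.44 per Mb). Its highest score was 7.39 in the control and 12.7 with H89. Band 2q34, which holds the urea-cycle gene CPS1, had 3 and 4 summits on 6.3 Mb, with highest scores of 22.3 and 19.7. Bands 2q33.3 and 2q34 were singled out after their values were seen.

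Most bands had more summits with H89, and the differences were small. Of the 62 bands, 41 had more summits with H89 (59.7% of all bands of the genome did), 7 had fewer (10.8% of all bands) and 14 had equal numbers, 2 of them with none. Among the 25 bands with 10 or more control summits the ratio ran from 0.867 in 2p25.3 to 2.20 in 2p13.1. In none of the 25 did the interval exclude 1.17, the ratio of the whole chromosome, and in none did it exclude a ratio of 1.

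Most HDAC1 sites of chromosome 2 were called in both libraries. Of the control summits 661 had an H89 summit within 1000 bp (87.1%, interval 84.5 to 89.4), against 87.6% over the whole control list. Of the H89 summits 667 had a control summit within that distance (75.1%, 72.1 to 77.9), against 72.2% over the whole H89 list. Both shares were near those of the whole lists. Short and long arm gave 87.2% and 87.0% for control summits and 76.4% and 74.1% for H89 summits. The median offset between paired summits was 54.5 bp, and 467 of 656 one-to-one pairs (mutually nearest summits within 1000 bp) were within 100 bp.

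Sharing rose with the score. Of control summits scoring from 2 up to 3, 112 of 153 had a partner (73.2%, 65.5 to 80.0), and all 214 that scored 6 or more did. Of H89 summits scoring from 2 up to 3, 76 of 156 had a partner (48.7%, 40.6 to 56.8). The share was 81.1% (75.3 to 86.1) from 4 up to 6, 95.5% (91.7 to 97.9) from 6 up to 10 and 98.9% (87 of 88) from 10 up to 20, and all 20 summits at 20 or more had a partner. On the other primary chromosomes the H89 share was 46.0% from 2 up to 3, 98.7% from 10 up to 20 and 98.6% at 20 or more.

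**Figure D2:**
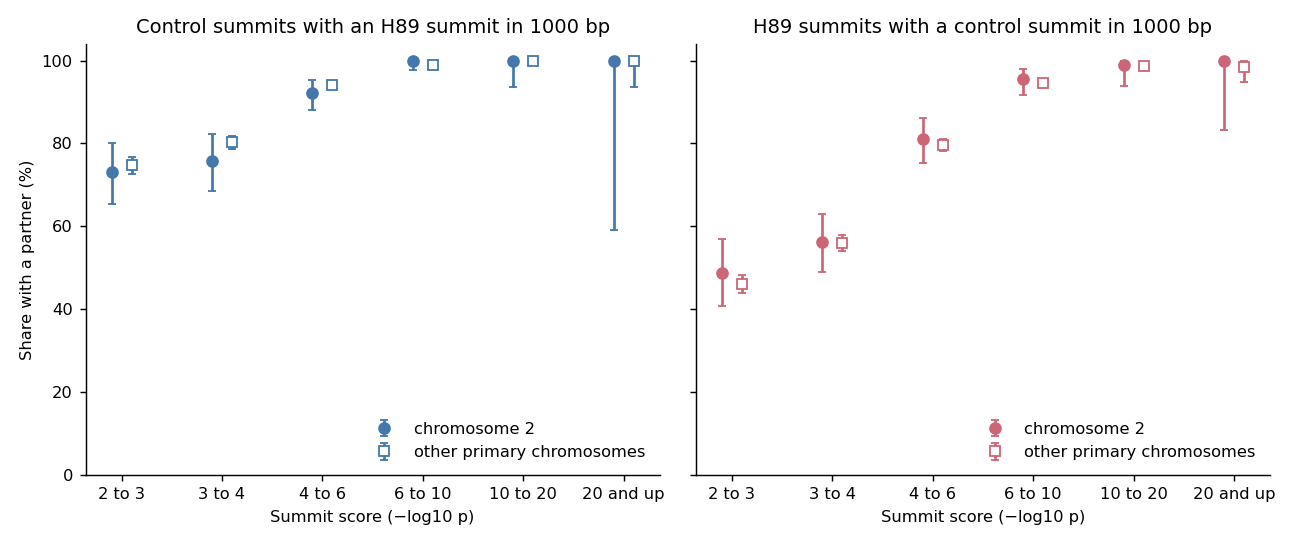
Share of control summits (left) and H89 summits (right) with a summit of the other library within 1000 bp, in percent, by score class, for chromosome 2 (filled circles) and the other primary chromosomes (open squares). Bars are exact 95% binomial intervals of 1 library each. On chromosome 2 the share rises from 73.2% to 100% in the control and from 48.7% to 100% with H89, and the intervals of the circles and squares overlap in every class.

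On chromosome 2, 98 control and 221 H89 summits had no partner, and they scored low. Their median score was 3.45 in the control and 3.44 with H89, against 5.30 and 5.49 for summits with a partner. No control summit without a partner scored above 5.50. The H89 summits without a partner were spread over 50 bands, with at most 18 in a band (2q37.3), and those of the control over 37 bands. Because only calls past a threshold are listed, a summit without a partner may still have had signal in the other library.

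The highest H89 summit without a control partner lay in 2p21 at position 44223279, with a score of 11.3. It was the only one on chromosome 2 at 10 or more, and it lay 172 kb from any control summit. The next, in 2q31.1 at 174828827, scored 9.92 and lay 1.55 kb from a control summit that scored 5.50. The other 3 of the 5 highest each scored 7.66. They lay in 2q14.1 (114410785) and at 2 places in 2q32.2 (191217726 and 191399371), 3.26 kb, 33.1 kb and 215 kb from a control summit.

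Control summits without a partner had an even top at 5.50. This is the commonest control score on chromosome 2 and equals a Poisson step of 3 counts (see Other observations). The 5 named all scored 5.50 and were taken in order of position, and 10 of the 98 scored 5 or more. They lay in 2p25.3 (3529020), 2p24.1 (21279321), 2p23.2 (28613677) and 2p11.2 (86191317 and 88355225). The site in 2p23.2 was 1.87 kb from an H89 summit of score 22.2. The site at 88355225 was 572 kb from any H89 summit.

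At sites called in both libraries, scores were more often higher with H89. Of the 656 pairs 326 scored higher with H89 by more than 0.1 (49.7%, 45.8 to 53.6), against 50.2% of all pairs of the genome. In 103 pairs the control scored higher by more than 0.1 (15.7%), against 14.5% of all pairs, and 227 pairs were within 0.1. These shares were near those of the genome. The short arm had 146 higher and 52 lower of 297 pairs, and the long arm 180 and 51 of 359.

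The imbalance was larger in pairs with a higher mean score. With a mean of 3 to 4, 47 of 123 pairs gained score under H89 and 23 lost score. Among the 185 with a mean of 6 to 10, 118 scored higher and 25 lower, with a median difference of 2.16. Of the 73 pairs from 10 up to 20, 49 were higher and 10 lower, with a median difference of 3.44, and of the 14 pairs at 20 or more, 11 were higher and 2 lower. On the other primary chromosomes 64.4% were higher from 6 up to 10 (63.8% here), with a median difference of 2.08, and 74.5% from 10 up to 20 (67.1% here), with 2.39. A control score of 5.50 and an H89 score of 7.66 equal Poisson steps of 3 and 4 counts (see Other observations). A difference of 2.16 can therefore be a move by 1 step.

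**Figure D3:**
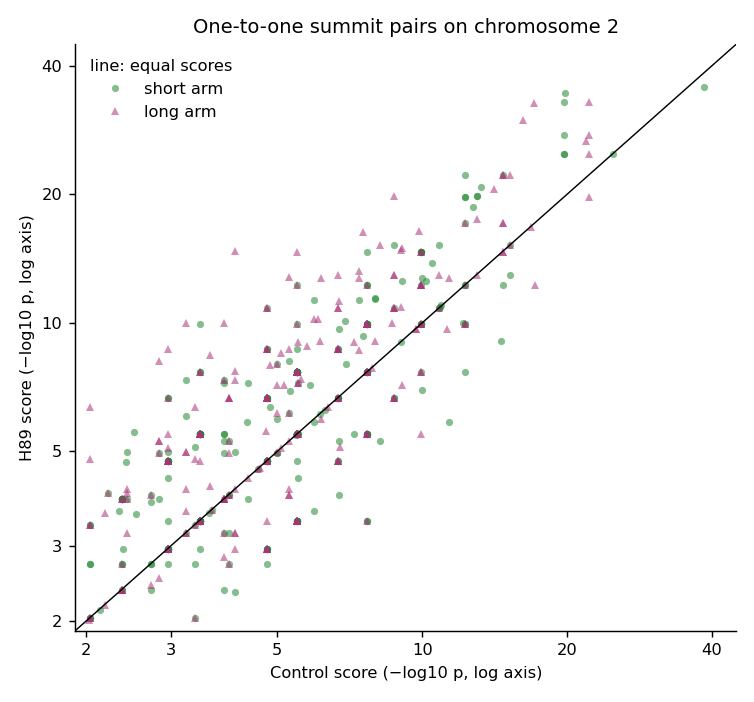
Score of each of the 656 one-to-one pairs on chromosome 2 in the control (horizontal) and H89 (vertical) library, both −log10 p on log axes, for the short arm (circles) and the long arm (triangles). The line marks equal scores. More points lie above the line (326 higher by over 0.1) than below it (103), and the highest pair, in 2p21, lies just below it.

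High scores were somewhat more frequent on chromosome 2 than over the whole lists. The same held for the other gained chromosomes together and for chromosome 1. In the control 62 summits scored 10 or more (8.17%, 6.32 to 10.3), against 6.49% over the whole list, which lies inside that interval. With H89 there were 108 (12.2%, 10.1 to 14.5), against 9.89% over the whole list. On the other primary chromosomes the shares were 6.20% (5.70 to 6.74) and 9.50% (8.94 to 10.1). The intervals overlapped in the control, and with H89 they lay next to each other without overlapping. Chromosomes 14, 16, 17 and 20 had shares of 8.12% (6.99 to 9.37) and 11.7% (10.5 to 13.1), close to those of chromosome 2. In 53 pairs both summits scored 10 or more, in 54 pairs only the H89 summit did, and in 9 pairs only the control summit did. These pair counts are given for chromosome 2 only and have no genome share beside them. The H89 to control ratio of summits scoring 10 or more was 1.74 here and 1.87 on the other primary chromosomes.

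Large rises were found in 47 pairs, which scored 5 or more higher with H89 (7.16%, 5.31 to 9.41), against 4.54% of all pairs of the genome. On the other primary chromosomes 317 of 7297 pairs did so (4.34%, 3.89 to 4.84), and the intervals did not overlap. Falls of 5 or more were found in 2 pairs (0.305%, 0.0369 to 1.10), against 0.195% of all pairs. The larger share of high scores on this chromosome stands beside this larger share of large rises, and its part in it was not tested.

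The highest-scoring site of chromosome 2 in both libraries lay in 2p21, with its control summit at 46636463 and its H89 summit at 46636478. Its scores were 38.5 without and 35.6 with H89, so the top site was not the higher one in the treated library. It stood alone, with the nearest other control summit 110 kb away. The second site by mean score lay in 2q36.1, a band with few summits, with scores of 22.3 for the control (223574252) and 32.9 for H89 (223574275). The sixth lay in the same band, at 223520969 (22.3) and 223520966 (27.5), so that 2 of the 6 control summits of 2q36.1 were among the highest of the chromosome.

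The sites ranked 3 to 5 by mean score were over 10 higher with H89. In 2p25.1 the score was 19.8 without H89 (11273047) and 34.5 with it (11273079). In 2p15, known to hold the nuclear export receptor gene XPO1, the summit at 63815892 scored 19.7 and its partner at 63815847 scored 32.9. In 2q13 the summit at 112812500 scored 17.1 and its partner at 112812473 scored 32.7, the largest rise of any pair on the chromosome (15.6). The site in 2p15 was isolated, with its nearest neighbour 252 kb away in both libraries.

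The remaining sites of the 10 differed less between libraries. A site in 2p24.1 had scores of 24.9 (control, 20251710) and 24.8 (H89, 20251638). In 2q35, known to hold the fibronectin gene FN1, which hepatocytes express strongly, the scores were 21.9 (219433377) and 26.7 (219433356). A site in 2p16.1 scored 19.7 (55459628) and 27.5 (55459605). The tenth, again in 2q13, scored 22.3 (112655806) and 24.8 (112655777). Of the 10 sites, 8 were higher with H89 by more than 0.1, 1 was lower and 1 was within 0.1. The H89 score enters this ranking and favours sites that score high with H89.

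The pairs with the largest rises included 3 of the sites above, in 2q13, 2p25.1 and 2p15. The other 2 lay on the long arm. In 2q33.1, known to hold the paired mitochondrial chaperonin genes HSPD1 and HSPE1, the score went from 16.2 (control, 198364811) to 29.9 (H89, 198364829). In 2q37.1, the site of the UGT1A cluster of liver glucuronidation enzymes, it was 8.72 at 233562133 and 19.8 at 233562147.

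The largest falls were smaller than the largest rises. In 2p23.3 a site went from 14.6 (control, 27579740) to 9.08 (H89, 27579494). A second site of 2p23.3, with both summits on base 25016112, scored 11.4 and 5.86. In 2q11.2 the scores were 17.2 (98612583) and 12.3 (98612551). In 2p24.1 they were 12.3 (20875885) and 7.66 (20875830), and in 2q12.2 they were 9.94 (106535991) and 5.49 (106535932). The 5 falls ran from 4.45 to 5.50, and the 5 rises from 11.1 to 15.6.

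HDAC1 sites on chromosome 2 were unevenly spaced. Joining summits of both lists that lay within 1000 bp gave 960 sites, of which 646 held summits of both libraries, 217 of H89 alone and 97 of the control alone. The median gap to the next site was 63.7 kb (quartiles 14.7 and 201 kb). Chromosome 1 had a median gap of 55.1 kb over 1154 sites and chromosome 3 one of 94.2 kb over 588 sites. Gaps over 1 Mb numbered 55 and together spanned 133 Mb, or 54.8% of chromosome 2, against 45.2% of chromosome 1 and 57.6% of chromosome 3.

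The widest gap covered most of the sparse run on the long arm. No summit of either library lay between 139259619 in 2q22.1 and 148601670 in 2q22.3, a stretch of 9.34 Mb. The next widest ran from 78769177 in 2p12 to 84686491 in 2p11.2 (5.92 Mb) and from 48668001 in 2p16.3 to 54014234 in 2p16.2 (5.35 Mb). A gap of 5.29 Mb lay between 153191816 in 2q23.3 and 158485605 in 2q24.1, and a gap of 5.24 Mb lay within 2q14.3, from 122513267 to 127754625. The median gap was 63.4 kb on the short arm and 64.5 kb on the long arm, while the upper quartile was 159 kb and 233 kb. The arms therefore had similar typical spacing, and the long arm had the wider gaps, with 35 over 1 Mb against 19 on the short arm and 1 across the centromere.

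**Figure D4:**
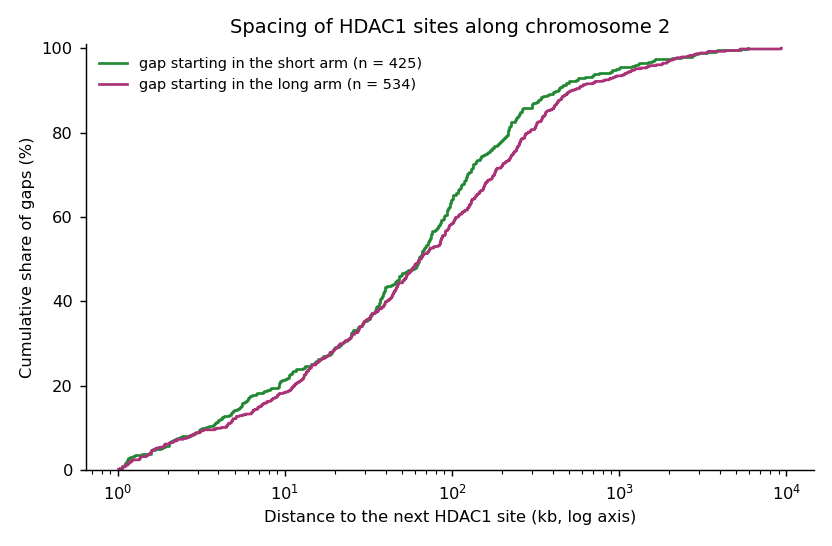
Cumulative share of gaps (vertical axis, percent) by the distance from an HDAC1 site to the next (horizontal axis, kb on a log scale) along chromosome 2, for gaps that start in the short arm (green) and in the long arm (purple), from both libraries pooled. The curves run together up to the medians, near 64 kb, and the long arm lies lower beyond them.

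At the other extreme, 325 of the 960 sites lay within 10 kb of another site, in 135 clusters, of which 38 had 3 or more sites. The largest clusters had 6 sites. In 2p13.1, from 74710290 to 74734681, 6 sites within 24.4 kb held 3 control and 6 H89 summits, with a highest score of 20.8. In 2q37.1, from 232536447 to 232560504, 6 sites within 24.06 kb held 4 summits in each library, and none scored above 6.70. In 2p21, 3 clusters of 5, 3 and 4 sites followed each other between 43379596 and 43454648, with highest scores of 11.4, 15.2 and 19.8. The cluster in 2p13.1 lies in the band with the highest H89 to control ratio, where it holds 6 of the 22 H89 summits. In 2p24.1, 3 sites between 21265125 and 21279321 held 3 summits in each library and reached a score of 14.7.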

How the data were processed

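The authors deposited 2 tables without a header, 1 for each HDAC1 library, giving 1-bp intervals, peak names and scores. Tables were assigned to libraries by the prefixes of their peak names, which resemble the sample titles WT_control and WT_treated. This assignment is an inference, and the direction of every difference with H89 rests on it. Per the submitters' processing notes, Bowtie 0.12.2 and hg19 were used. The sources used here name no peak caller, control library, threshold or filter of duplicate or multiply mapping reads. The deposited score is read as −log10 of a p-value, from its values. Positions are 1-based on hg19. Bands came from circlize 0.4.16 (R 4.3.3), whose 24 chromosome lengths equal those of GenomeInfoDb 1.38.1. The gene table provided is on GRCh38.p14, so no summit was assigned to a gene, and genes are named only by band as background. Pairs are mutually nearest summits within 1000 bp, and score differences up to 0.1 count as equal. Although score scales were not shown to be shared between lists, scores were set side by side.

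Summits named were the 10 pairs with the highest mean score, the 5 largest rises and falls, and the 5 highest summits without a partner in each list. Ties were ordered by position. Bands named were the 5 densest and sparsest by control density, the runs, both ends, the centromere, 2q13, 2q14.1, 2q21, 2p24.1 and 2q31.1. The 5 widest gaps were also named. The members, rules and lists were chosen with earlier results of these data known. Clusters, other bands and other gene names were chosen after their values were seen. Functions were tested on simulated data. Alternatives were minimum scores, merging within 500 bp, other distances, score limits, arm definitions and band limits. The software was Python 3.11.15, scipy 1.17.1, pandas 2.3.3, numpy 2.4.6 and matplotlib 3.10.9.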

Additional observations from a re-analysis of the deposited data

How the results depend on the processing

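Of 24 alternatives, 15 left the value within its interval or, for a count, within 1.5 times. The H89 to control ratio of chromosome 2 was 1.74 among summits scoring 10 or more. The share of control summits with a partner was 61.5% within 100 bp, 84.2% within 500 bp and 1.05% on the same base. For H89 summits it was 52.6%, 72.0% and 0.901%, and 71.2% when both lists were limited to scores of 5 or more. A shorter distance lowers these shares by construction. With dense bands set at 1.5 times the median band in place of the whole chromosome, 26 control bands were dense instead of 12, since the median band (2.25 per Mb) is sparser than the chromosome. The short arm was denser than the long arm under each alternative run for it (1.27 to 1.36), and 47.1% to 53.1% of pairs scored higher with H89. No paired analysis was possible because neither condition has a replicate. All values are limited by this and by the unknown depth.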

Other observations

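In windows of 1 Mb, equal in length except for a shorter last one, HDAC1 summits on chromosome 2 were packed into few places. Of 244 windows, 80 held no summit of either library (32.8%), and 31 windows (12.7%) held 50% of the control summits. The fullest was chr2:242000001-243000000 in 2q37.3, with 24 control and 29 H89 summits. It was followed by chr2:43000001-44000000 in 2p21 (23 and 22), chr2:219000001-220000000 in 2q35 (22 and 25) and chr2:20000001-21000000 in 2p24.1 (22 and 22). The windows in 2p21 and 2p24.1 had no more summits with H89 than in the control. Windows were chosen after their values were seen.

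Scores on chromosome 2 took 105 different values without H89 and 133 with it. The commonest was 5.50 in the control (107 summits) and 3.44 with H89 (133 summits). On the other primary chromosomes the commonest control score was 3.45 (16.7%). A score of 5.50 equals the −log10 upper tail of 3 or more counts at a Poisson mean of 0.0269, and 3.45 that of 2 or more. Of the control summits on chromosome 2, 40.8% (37.3 to 44.4) lay within 0.001 of a step of that mean, against 41.8% (40.7 to 42.9) on the other primary chromosomes. With H89, at a mean of 0.0271, the shares were 41.1% (37.8 to 44.4) and 41.6% (40.7 to 42.6). Each mean was set so that its step of 3 counts equals the commonest score from 5 to 6 of the whole list, so that score matches by construction.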
